A study of Mus musculus and Homo sapiens with 176 samples.

Results

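RNA of sorted NeuN- nuclei was compared between the cerebellum and the prefrontal cortex, for every feature that reached 1 FPKM in 2 or more of the 4 libraries and had an OK quantification status. FPKM are fragment numbers divided by transcript length and by the mapped total of the library, so they are levels per length. The rule kept 13471 of the 24854 features in the tables. Of the others, 11377 were under the minimum and 6 reached it with another status in a library (Zfp281, Llgl1, Flii, Odf2, Per3 and Sept7). The groups were cerebellar NeuN- nuclei and prefrontal NeuN- nuclei, with 2 libraries each, and the NeuN+ nuclei of the same regions, with 2 libraries each, served to test whether a region change differed between the sort gates. All 8 libraries came from 1 C57BL/6 mouse (M3) aged 8 to 10 weeks, and the labels name no genetic change and no treatment for any group. The p-values measure the spread of these libraries only, which may be technical and does not include differences between animals. The series also holds profiles of histone marks in the same kinds of nuclei, which were not used here.

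NeuN, the protein of Rbfox3, is a splicing factor in the nuclei of most neurons, and a sort on it aims to leave glial nuclei in the negative gate. Some neurons stain weakly or not at all, among them the Purkinje cells and several interneuron types of the cerebellum. The glia of the cerebellar cortex include Bergmann glia, radial astrocytes whose processes surround the Purkinje cell dendrites, while the cortex holds protoplasmic astrocytes of telencephalic origin. Both regions hold oligodendrocytes, which make myelin, their precursors, and microglia, the resident macrophages of the brain. Cerebellar cells descend from the anterior hindbrain and cortical cells from the telencephalon, and many keep transcription factors of that origin in the adult.

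The deposited FPKM summed to 289350 and 292215 in the cerebellar NeuN- libraries and to 426851 and 414230 in the prefrontal ones, and between 12389 and 12494 features reached 1 FPKM in each of the 4. The absolute depth is unknown. Across the 13471 features, which are no replicates of each other, Spearman correlation was 0.98 and 0.981 within the NeuN- groups and 0.760 to 0.768 between them, and no value above 0 was identical in a pair of replicates. Levels below are scaled FPKM, that is FPKM multiplied by 1 factor per library, and changes are differences of log2(scaled FPKM + 1), cerebellar minus prefrontal, with folds on the same FPKM + 1 scale. This understates the change of low genes.

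Most features differed between the regions. Of 13471 features, limma called 11031 at an adjusted p under 0.05, which is 81.9%. Of these, 5585 were higher in cerebellar NeuN- nuclei (41.5%) and 5446 were lower (40.4%), with 2064 (15.3%) and 2501 (18.6%) changed by at least 2-fold. At least 8-fold changes were seen in 98 features that were higher and 182 that were lower. The minimum was reached in cerebellar libraries only by 975 features and in prefrontal libraries only by 1107, so the filter set their direction. Among the largest changes below, Lhx1os, Mybpc1, Abi3bp, Cd70, Mapk13, Gabra6, Crym, Syt5 and Vip are such features. Members of many gene groups below are such features too. The libraries of the regions did not overlap for 91.2% of features. A call is common in these data, and counts of called genes in the gene groups below are to be read against these shares. The median change of all features was 0.02, and it was -0.17 without scaling and 0.28 with a common FPKM sum. The share of calls that were higher was 50.6%, against 42.2%, 61.8% and 52.5% without scaling, with a common sum and with quantile normalization. In bulk libraries, fewer cells of a type and less RNA per cell cannot be told apart. Fragments of overlapping genes may be shared between them, which makes the values of Slc7a10, Pdgfra, Lhfpl3, Bmp4, Nkx2-2, Cdh5, Uchl1, Slc17a7, Boc, Fgfr1, Epha4, Epha10, Gabra5, Gpc5, Spock2, Gpc6 and Sox2ot uncertain, along with those for which an overlap is given below.

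Among the 12 genes with the largest increases in cerebellar NeuN- nuclei, Pcp2, Cbln1, Gabra6 and Neurod1 belong to the Purkinje and granule cell lists. Lhx1os, a noncoding RNA beside the Purkinje cell factor gene Lhx1 (chromosome 11, 84339162 to 84349333, mm9), stood at 158 and 150.2 in the cerebellar and 0 and 0.226 in the prefrontal libraries. The difference was 7.13 in log2 units (SE 0.0983, limma adjusted p = 5.6e-08). Mybpc1, which encodes a myosin binding protein first known from slow muscle (chromosome 10, 87981024 to 88067897, mm9), stood at 80.5 and 78.2 against 0.253 and 0.347, a difference of 5.95 (SE 0.0763, limma adjusted p = 4.1e-08). Groups that did not overlap were a condition for naming both genes, and the replicates of a group lay close together. The tubulin glycylase gene Ttll3, at 93.5 and 92.6 against 1.06 and 1.33, overlaps Arpc4, so its value is uncertain. The matrix protein gene Abi3bp stood at 44.2 and 44.4 against 0.232 and 0.273. Cd70, which encodes a ligand of the tumour necrosis factor family, stood at 27 and 21.1 against 0 and 0.0747. Mapk13, the gene of a p38 kinase, stood at 22.2 and 24.1 against 0.036 and 0.0806, and Asgr1, known as a lectin gene of hepatocytes, at 30.8 and 29.9 against 0.856 and 0.605. The globin gene Hbb-bs was listed at 36 and 18 against 0.00242 and 0.0032, but it overlaps Hbb-b1, a near-identical copy, and fragments could be split between them in different ways.

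The 12 largest decreases included genes of the cortical interneuron list (Sst, Lamp5 and Vip), the cortical projection neuron list (Cck) and the microglia list (Ctss and P2ry13). The thyroid hormone binding protein gene Crym (chromosome 7, 127329898 to 127345502, mm9) stood at 0.0636 and 0 in the cerebellar and 72.2 and 66.6 in the prefrontal libraries, a log2 change of -6.09 (SE 0.0688; limma adjusted p = 2.9e-08). Syt5, a synaptotagmin gene, stood at 0.303 and 0.528 against 51 and 51.6, and Rprml at 1.39 and 1.19 against 77 and 75.2. These 3 genes were near 0 or 1 in the cerebellar libraries and far higher in the prefrontal ones. Mal2, which encodes a membrane trafficking protein, stood at 0.13 and 0.0848 against 32.3 and 29.4, and the sialyltransferase gene St6galnac5 at 0 and 0.0303 against 25.9 and 28.7. Rasl10a was listed at 0 in both cerebellar libraries and at 30.8 and 30.8 in the prefrontal ones; it overlaps Gas2l1.

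**Figure D1:**
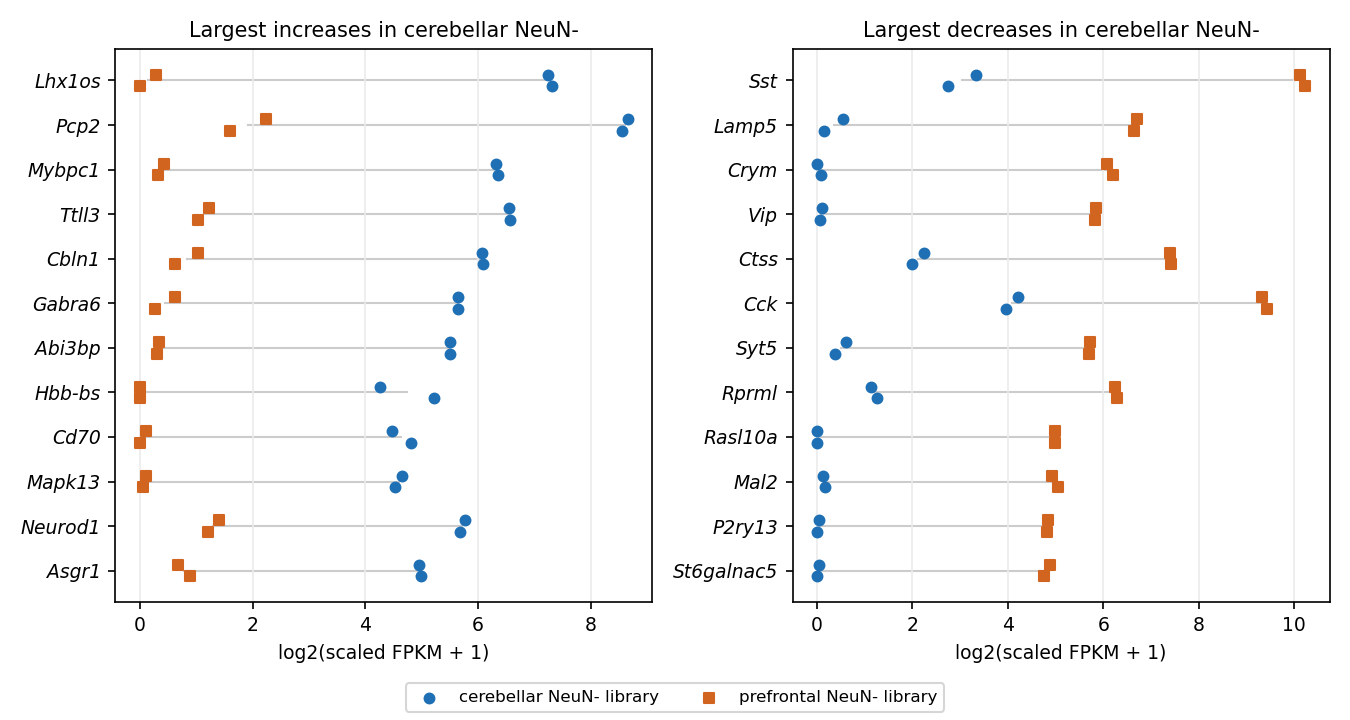
Levels of the 12 genes with the largest increase and the 12 with the largest decrease, as log2(scaled FPKM + 1) on the horizontal axis, with 1 point per library (2 per region) and a line between the group means. The genes were chosen among those whose groups did not overlap, so cerebellar libraries (circles) and prefrontal libraries (squares) lie apart by selection. Replicates of Hbb-bs are the farthest apart among the increases.

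Rbfox3, which encodes the antigen used for the sort, was higher in cerebellar NeuN- nuclei. It stood at 34.7 and 35.6 in the cerebellar and 12.5 and 11.1 in the prefrontal NeuN- libraries, a 2.84-fold difference (SE 0.0636 on the log2 scale, limma adjusted p = 1.3e-06). In the NeuN+ libraries it stood at 128 and 123 in cerebellum and 16.9 and 16.4 in prefrontal cortex. Both NeuN- groups also held general neuronal messages. Summed over the 25 general neuron genes, levels were 1065 and 1074 in the cerebellar and 2548 and 2675 in the prefrontal libraries. Of these genes 16 were lower in cerebellar nuclei, 6 were higher and 3 were not called (median -0.39, against 0.02 for all features), and without scaling 3 were higher. Snap25, the gene of a synaptic fusion protein, stood at 395 and 395 in the cerebellar and 1387 and 1492 in the prefrontal libraries, 3.63-fold lower (limma adjusted p = 3.8e-07). The neurofilament gene Nefl was 5.1-fold lower (28.7 and 26.8 against 136 and 156), and Uchl1, which encodes a neuronal deubiquitinase, 4.56-fold lower. The prefrontal NeuN+ libraries held less Snap25 (1026 and 1021) and Nefl (107.7 and 102.7) than the prefrontal NeuN- ones. The synaptotagmin gene Syt1 went the other way, at 63.7 and 59.7 in prefrontal NeuN- and 94 and 91.9 in prefrontal NeuN+ libraries. The RNA-binding protein gene Elavl3 was 2.65-fold higher, at 6.84 and 6.71 against 2.26 and 1.64. The part of neuronal RNA in the changes of the other gene groups was not tested.

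Genes of the cerebellar granule cell, the small excitatory neuron that makes up most cells of the cerebellum, were mostly higher in cerebellar NeuN- nuclei. Of 16 tested, 13 were higher and 3 lower (median 1.33), and 5 reached the FPKM minimum only in the cerebellar libraries. Cbln1, which encodes the synaptic organizer released by granule cell axons (chromosome 8, 89992752 to 89996491, mm9), stood at 67.3 and 66.1 in the cerebellar and 0.541 and 1.05 in the prefrontal libraries, 38.1-fold higher (limma adjusted p = 1.6e-07). Gabra6, the GABA-A receptor subunit gene of granule cells (chromosome 11, 42119939 to 42134574, mm9), stood at 49 and 48.7 against 0.205 and 0.551, 36.5-fold higher (limma adjusted p = 1.2e-07). The granule cell factor gene Neurod1 was 21.3-fold higher, at 50.2 and 53.2 against 1.3 and 1.65. Each was lower in cerebellar NeuN- than in cerebellar NeuN+ libraries, where Cbln1 stood at 170.4 and 165, Gabra6 at 251 and 257 and Neurod1 at 132 and 130.5. Cbln3, a partner of Cbln1, was 14.5-fold higher. The lower members included Grin2c, an NMDA receptor subunit gene, at 15.3 and 14.7 against 21.8 and 20.9, and the vesicular glutamate transporter gene Slc17a7, at 0.0735 and 0.299 against 1.2 and 0.996. Unipolar brush cells, another excitatory type of the granular layer, had all 5 tested genes higher, among them the factor gene Eomes (2.15 and 2.06 against 0.116 and 0.236); 2 of the 5 reached the minimum in cerebellum only.

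Purkinje cells are the inhibitory output neurons of the cerebellar cortex, and 12 of their 15 tested genes were higher in cerebellar NeuN- nuclei, with 3 lower (median 2.71; 3 reached the minimum in cerebellar libraries only, and 1 was lower with a common FPKM sum). Pcp2, a G-protein regulator gene specific to these cells in the cerebellum, stood at 372 and 403 in the cerebellar and 2.04 and 3.7 in the prefrontal libraries. The difference was 6.68 in log2 units (SE 0.178, limma adjusted p = 2.3e-07); Pcp2 overlaps Pet100. Its level in the cerebellar NeuN+ libraries was 415 and 410.0, close to that in NeuN-.

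Rgs8, the gene of a regulator of G-protein signalling, stood at 19 and 19.7 against 1.56 and 1.29 (3.07 in log2 units, limma adjusted p = 1.6e-07). The 250 bases before its start are shown as an example of a Purkinje cell gene; the capitals mark AGGTCA, a hexamer bound by nuclear receptors such as the product of Rora, the orphan receptor gene needed by Purkinje cells (RefSeq, GRCm38.p6, chr1:153665423-153665672, plus strand).
Rgs8: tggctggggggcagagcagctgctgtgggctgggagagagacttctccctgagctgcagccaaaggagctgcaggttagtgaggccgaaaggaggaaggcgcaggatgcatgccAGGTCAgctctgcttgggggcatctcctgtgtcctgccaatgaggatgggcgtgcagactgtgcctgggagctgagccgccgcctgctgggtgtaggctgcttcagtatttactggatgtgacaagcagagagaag
The letters AGGTCA, searched on either strand, occur in 4607 of the 32851 RefSeq windows of this length, so a match is common and describes only the letters. They were found before 4 of the 10 Purkinje genes of the list with a window in the table, Pcp2, Pcp4, Homer3 and Rgs8. Counted by window, as for all windows, they were in 6 of the 18 windows of these 10 genes. Rora itself stood at 50.6 and 54 in the cerebellar and 7.68 and 6.65 in the prefrontal libraries.

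Pvalb, the calcium buffer gene of Purkinje cells and fast-spiking interneurons, stood at 395 and 402 in the cerebellar and 29.9 and 24.4 in the prefrontal libraries, 14.2-fold higher (limma adjusted p = 1.4e-07). Lhx1 stood at 9.56 and 10.3 against 0.0168 and 0.0751. The lower members were Dab1, of the Reelin pathway (11.1 and 10 against 27.8 and 26.3), the calcium buffer gene Calb1 (21.7 and 24.3 against 30.4 and 32.8) and the factor gene Foxp2 (1.9 and 1.65 against 2.36 and 2.32), and Calb1 lost its call with a common FPKM sum. Of 11 genes of cerebellar inhibitory interneurons, 8 were higher and 3 lower (median 1.24). The minimum was reached in cerebellar libraries only by 3, Tfap2b and Kit among them, and in prefrontal libraries only by 1, which set their direction. With 1 FPKM required in all 4 libraries, 5 were higher. Tfap2b, a factor gene of that lineage, stood at 13.4 and 12.4 against 0.074 and 0.0812, 12.9-fold higher (limma adjusted p = 8.5e-08). The receptor kinase gene Kit stood at 4.34 and 4.38 against 0.0344 and 0.116, the cadherin gene Cdh22 at 9.61 and 10 against 1.24 and 1.23 and the kinase gene Prkcd at 30.9 and 30.1 against 6.49 and 6.32. Nxph1, which encodes a neurexin ligand, went the other way, at 4.37 and 3.55 against 26.4 and 28.5, and Lypd6 was 1.53-fold lower.

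All 6 neuropeptide genes examined (Sst, Cck, Vip, Npy, Tac1 and Cort), taken from the cortical lists, were called lower in cerebellar NeuN- nuclei. Of all features, 40.4% were called lower. Sst, Cck and Vip were already among the largest decreases named above. Vip and Cort reached the minimum in prefrontal libraries only, which set their direction. Prefrontal levels of the 6 differed widely. Sst, the somatostatin gene that marks a class of cortical interneurons (chromosome 16, 23889667 to 23890930, mm9), stood at 5.74 and 9.05 in the cerebellar and 1204 and 1109 in the prefrontal libraries. The difference was -7.13 in log2 units (SE 0.221, limma adjusted p = 3.9e-07). The prefrontal NeuN+ libraries held 843 and 757. The 250 bases before its start are shown because it had the largest decrease of all named genes; the capitals mark TGACGTCA, the cAMP response element for which this promoter is known (RefSeq, GRCm38.p6, chr16:23890845-23891094, minus strand).
Sst: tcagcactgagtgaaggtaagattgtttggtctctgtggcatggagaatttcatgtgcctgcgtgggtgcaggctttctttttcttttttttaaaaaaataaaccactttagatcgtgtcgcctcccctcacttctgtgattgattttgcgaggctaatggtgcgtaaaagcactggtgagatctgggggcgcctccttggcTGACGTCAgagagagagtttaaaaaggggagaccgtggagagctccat
This palindrome of 8 bases, the same on either strand, was found in 1.55% of the 32851 windows, and among the windows of Sst, Cck, Vip, Npy, Tac1 and Cort it was found only in that of Sst. No match says only that these letters are absent from a window.

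Cck, the cholecystokinin gene, stood at 14.7 and 17.7 in the cerebellar and 691 and 639.6 in the prefrontal libraries, 38.9-fold lower (limma adjusted p = 9.6e-08). Vip stood at 0.0506 and 0.0823 against 55.9 and 56.9 and Tac1, the substance P gene, at 1.93 and 0.917 against 51.7 and 62.1. Npy, the neuropeptide Y gene, stood at 49 and 41.4 against 367 and 326, and Cort, the cortistatin gene, was listed at 0 in both cerebellar libraries and at 1.73 and 1.93 in the prefrontal ones. Lamp5, a lysosomal membrane protein gene that marks neurogliaform interneurons, stood at 0.115 and 0.467 against 98.8 and 104. In each of these genes, Sst included, the groups did not overlap, as was so for 91.2% of all features. Cortical interneuron genes as a list were divided, with 7 higher, 8 lower and 1 not called of 16 (median -0.60). Of the 16, 5 reached the minimum in prefrontal libraries only, and with 1 FPKM required in all 4 libraries 5 were higher and 2 lower of 8. The count was 8 higher and 8 lower with a common sum and with quantile normalization. The higher members included the inhibitory vesicle transporter gene Slc32a1 (2.55 and 2.64 against 0.164 and 0.129) and Adarb2 (17.9 and 18.1 against 5.98 and 6.75).

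Cortical projection neuron genes were mostly lower, with 17 of 21 lower and 4 higher (median -1.25), and 11 of them reached the minimum only in the prefrontal libraries. With at least 1 FPKM required in all 4 libraries, 8 remained in the test, of which 6 were lower and 2 higher. Nrgn, which encodes the calmodulin-binding protein neurogranin, was listed at 0 in both cerebellar libraries and at 14.9 and 9.29 in the prefrontal ones. Mef2c, a transcription factor gene of cortical neurons and microglia, stood at 5.89 and 5.33 against 57.3 and 58.4, 8.91-fold lower (limma adjusted p = 9.6e-08). Bhlhe22 (7.86 and 7.91 against 1.74 and 0.704) and Neurod2 (16.5 and 18.7 against 3.73 and 3.56) were higher in cerebellar nuclei.

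Transcription factors of hindbrain origin were higher in cerebellar NeuN- nuclei in all 16 cases that could be tested (median 2.02), of 33 listed. The minimum was reached only in the cerebellar libraries by 14 of them, so their direction was set by the filter; the other 2 were higher as well. Mab21l1 stood at 12.8 and 14.2 in the cerebellar and 0.0166 and 0.0557 in the prefrontal libraries; it lies within Nbea. Zic1, a zinc finger factor gene of the cerebellar primordium, stood at 19.3 and 18.8 against 1.39 and 1.27, 8.6-fold higher (limma adjusted p = 1.8e-07). Pax3 stood at 7.13 and 7.62 against 0.236 and 0.218, and En2, an engrailed factor gene of the midbrain and cerebellum, at 7.92 and 9.27 against 0.29 and 0.474. Hox genes, which pattern the hindbrain behind the cerebellum, gave 0 tested features of 21.

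Forebrain factors were lower in 11 of 15 cases and higher in 4 (median -1.29), and 10 reached the minimum in prefrontal libraries only, which set their direction. With 1 FPKM required in all 4 libraries, 3 were tested, of which 2 were higher and 1 lower. Emx1, which marks the dorsal telencephalon, stood at 0.069 and 0.393 against 12.1 and 12.6, 10.9-fold lower (limma adjusted p = 8.3e-07). Tbr1 and Fezf2, of deep-layer projection neurons, were listed at 0 in the cerebellar libraries; Tbr1 stood at 4.89 and 4.39 and Fezf2 at 3.78 and 3.66 in the prefrontal ones. Bcl11a stood at 2.92 and 2.19 against 18.9 and 15.8. The 4 members that were higher in cerebellar nuclei were Nkx2-1 (6.78 and 7.08 against 1.2 and 1.25), Bhlhe22, Nr2f1 (9.03 and 8.32 against 2.07 and 2.53) and Nr2f2 (2.72 and 3.01 against 0.389 and 0.481).

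Astrocyte genes did not move one way: all 24 were at the FPKM minimum in both regions, with summed levels of 1475 and 1498 in the cerebellar and 2380 and 2460 in the prefrontal libraries. Of these, 11 were higher in cerebellar nuclei, 10 lower and 3 not called (median 0.10), and without scaling 6 were higher and 11 lower. Clu, which encodes the chaperone clusterin (chromosome 14, 66587320 to 66600382, mm9), stood at 37.7 and 38.6 in the cerebellar and 615 and 651 in the prefrontal libraries, 16.2-fold lower (SE 0.069 on the log2 scale, limma adjusted p = 8.2e-08). The zinc transporter gene Slc39a12 stood at 3.69 and 3.59 against 23.4 and 22.8, 5.18-fold lower. In the other direction, Atp1b2, a sodium pump subunit gene, stood at 19.2 and 20.1 against 3.79 and 3.26, 4.56-fold higher (limma adjusted p = 1.2e-06). The bicarbonate transporter gene Slc4a4 was 2.37-fold higher, the amino acid transporter gene Slc7a10 2.34-fold higher and Fgfr3, a growth factor receptor gene of astrocytes, 1.65-fold higher.

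Few genes that separate astrocytes by origin could be compared apart from the filter. All 5 tested genes of telencephalic astrocytes were lower (median -2.12), 4 of which had their direction set by reaching the minimum in prefrontal libraries only. Mfge8, which encodes a phagocytosis bridge protein and was at the minimum in every library, stood at 15.7 and 13.4 against 157 and 163, 10.4-fold lower (limma adjusted p = 1.7e-07). All 5 tested genes of non-telencephalic astrocytes were higher (median 1.56), 3 of which reached it in cerebellar libraries only. With 1 FPKM required in all 4 libraries, 1 telencephalic gene (lower) and 2 non-telencephalic genes (higher) were tested. Agt, the angiotensinogen gene, stood at 18.9 and 18.9 against 6.13 and 6.28, and Itih3, which encodes a hyaluronan-binding chain, at 187 and 182 against 58.6 and 65.8. The factor genes Irx2 (3.59 and 4.08) and Irx5 (1.92 and 1.96) were listed at 0 in both prefrontal libraries.

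Bergmann glia genes were higher in 11 of 14 cases, with 2 lower and 1 not called (median 1.55). Of the 14, 3 reached the minimum in cerebellar libraries only, A2m and Dao among them, which set their direction. A2m, a protease inhibitor gene, stood at 26.8 and 28.6 in the cerebellar and 0.822 and 0.878 in the prefrontal libraries, 15.5-fold higher (limma adjusted p = 1.5e-07). Gdf10, which encodes a growth factor of the BMP family made by Bergmann glia (chromosome 14, 34736773 to 34748468, mm9), stood at 63.5 and 61.8 against 5.41 and 4.81, 10.4-fold higher (limma adjusted p = 1.6e-07). Dao, the gene of D-amino acid oxidase, stood at 8.57 and 9.41 against 0 and 0.0309. Gria1, an AMPA receptor subunit gene that these glia use, stood at 72.8 and 73.6 against 8.94 and 9.44, 7.28-fold higher. In cerebellar NeuN+ libraries A2m, Gdf10 and Gria1 were lower than in NeuN-, at 0.721 and 1.01 for A2m, 11.2 and 10.4 for Gdf10 and 5.76 and 5.39 for Gria1. Fabp7, a fatty acid binding protein gene of radial glia, was 2.11-fold lower in cerebellar nuclei (19.3 and 17.4 against 41.4 and 38.2), and the factor gene Etv5 1.76-fold lower.

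Glial channels and connexins had 6 higher, 8 lower and 3 not called of 17 (median -0.24; 7 and 7 with a common sum). Gja1 and Gjb6, the connexin genes of astrocyte gap junctions, stood at 36.4 and 35 against 126 and 139.8 and at 55.3 and 52 against 108 and 117, 3.65-fold and 2.08-fold lower. The potassium channel genes Kcnk1 and Kcnk2 were 2.7-fold and 2.57-fold lower. Gjc3, the connexin 29 gene of oligodendrocytes, was 2.18-fold higher, and the chloride channel gene Clcn2 2.96-fold higher; Clcn2 overlaps Fam131a. Genes of transmitter uptake and turnover had 12 higher, 7 lower and 3 not called of 22 (median 0.34). Of the 22, 3 reached the minimum in cerebellar libraries only, Amt among them, which set their direction. Slc38a1, a glutamine transporter gene, stood at 26.5 and 26.8 against 3.87 and 4.17, 5.51-fold higher (limma adjusted p = 1.8e-07). Amt, of the glycine cleavage system, stood at 2.15 and 2.23 against 0.038 and 0.0852. The neutral amino acid transporter gene Slc1a4 was 4.7-fold lower (5.17 and 6.01 against 29.6 and 30.2), and Maob, the gene of the astrocytic monoamine oxidase, 4.06-fold lower (3.82 and 3.92 against 18.6 and 19).

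**Figure D2:**
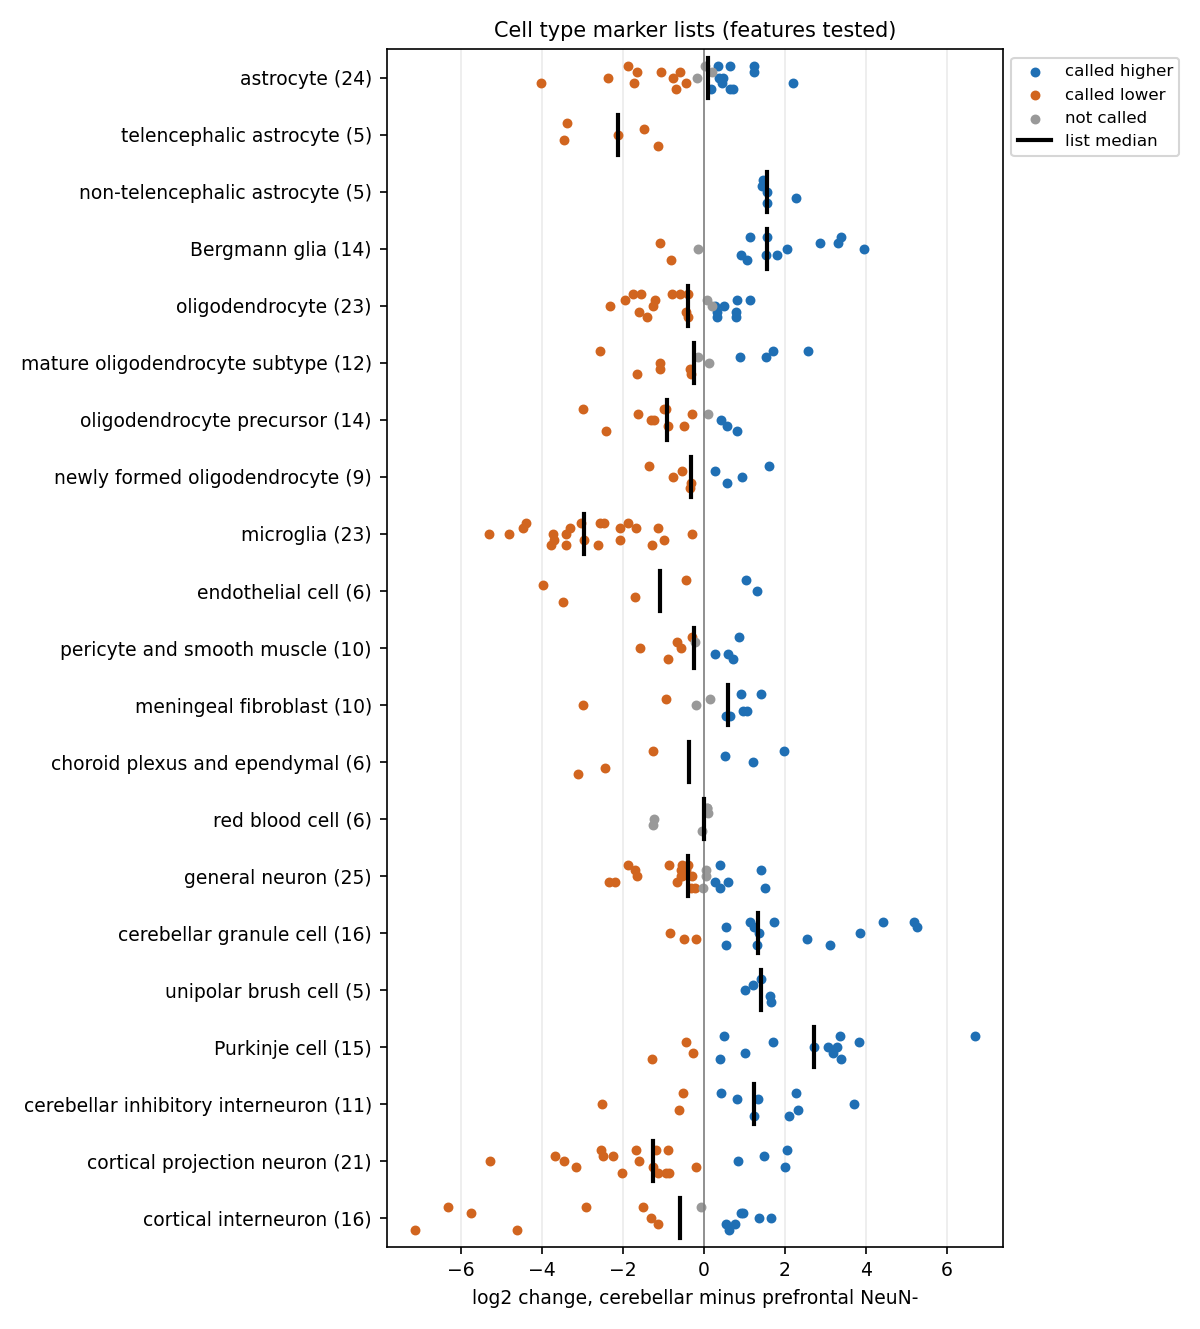
Log2 change (cerebellar minus prefrontal NeuN-) of each tested feature in 21 cell type marker lists, with the number tested in parentheses; colours give the limma call and black bars the list median. The 23 microglia genes all lie below 0 and the 5 unipolar brush cell genes all above 0, while astrocyte and oligodendrocyte genes lie on both sides.

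Oligodendrocyte genes were present in both regions and differed in both directions. Of 23, 8 were higher in cerebellar nuclei, 13 lower and 2 not called (median -0.39). The count was 10 higher and 10 lower with a common sum, and 4 higher and 13 lower without scaling. Ugt8a, the gene of the enzyme that makes galactosylceramide for myelin, stood at 5.04 and 5.11 in the cerebellar and 29.1 and 29.7 in the prefrontal libraries, 5.01-fold lower (SE 0.0727 on the log2 scale, limma adjusted p = 4e-07). Opalin, a myelin membrane gene, stood at 93.4 and 101 against 303 and 288 and Mal, a myelin lipid raft gene, at 69.8 and 72.7 against 232 and 254. The receptor gene Gpr37 was 3.88-fold lower.

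Genes that vary between mature oligodendrocyte subtypes had 4 higher, 6 lower and 2 not called of 12 (median -0.23). That balance turned to 5 higher and 4 lower with a common sum and to 6 and 4 with quantile normalization. Klk6, a protease gene of mature oligodendrocytes (chromosome 7, 51079914 to 51087397, mm9), stood at 57.2 and 58.1 against 6.9 and 11.5, 5.91-fold higher (limma adjusted p = 1.4e-05). The calcium-binding protein gene S100b stood at 253 and 247 against 80.1 and 71.8, 3.27-fold higher. Grm3, a metabotropic glutamate receptor gene, stood at 5.89 and 5.79 against 39.1 and 39.4, 5.88-fold lower, and Il33, the gene of a nuclear alarmin cytokine, at 16.8 and 15.9 against 50.5 and 56.1, 3.13-fold lower. The carbonic anhydrase gene Car2 and the pteridine reductase gene Qdpr were 2.12-fold and 2.11-fold lower.

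Precursor genes were mostly lower, with 10 of 14 lower, 3 higher and 1 not called (median -0.91). Of the 14, 2 reached the minimum in prefrontal libraries only, which set their direction. Pdgfra, the growth factor receptor gene that defines oligodendrocyte precursors (chromosome 5, 75548316 to 75594229, mm9), stood at 2.08 and 2.1 in the cerebellar and 22.2 and 24.7 in the prefrontal libraries, 7.9-fold lower (SE 0.0756 on the log2 scale, limma adjusted p = 1.9e-07). Tmem100 stood at 8.67 and 8.28 against 48.2 and 51.6, Lhfpl3 at 1.1 and 1.36 against 5.96 and 5.75 and the protocadherin gene Pcdh15 at 3.17 and 3.16 against 9.29 and 9.39. Every pair of groups was apart in these 4 genes, as it was for 91.2% of all features. The lineage factor genes Sox10 (4.65 and 4.26 against 2.33 and 1.92) and Sox6 (6.59 and 6.96 against 4.49 and 3.96) were higher. Newly formed oligodendrocyte genes were divided, 4 higher and 5 lower of 9 (median -0.33; 4 and 3 with a common sum). Bmp4 was 2.55-fold lower and Rras2 1.7-fold lower, while Nkx2-2 stood at 3.73 and 2.62 against 0.505 and 0.233 and Tcf7l2, the Wnt effector gene of differentiating oligodendrocytes, was 1.93-fold higher.

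Microglia genes were lower in cerebellar NeuN- nuclei throughout: of 25, 23 were tested and 23 were lower, 21 of them by at least 2-fold (median -2.96). The share of lower calls among all features was 40.4%. Of the 23, 7 reached the minimum in prefrontal libraries only; with at least 1 FPKM required in all 4 libraries, 14 were tested and 14 were lower. C1qa and Olfml3 were under the minimum. Without the minimum, 24 of the 25 were lower and 1 was higher, and with a common FPKM sum 22 of the 23 were called lower. Summed over the list, levels were 102.4 and 103.0 in the cerebellar and 1185 and 1209 in the prefrontal libraries.

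Ctss, which encodes the lysosomal protease cathepsin S (chromosome 3, 95330708 to 95360327, mm9), stood at 2.96 and 3.73 in the cerebellar and 169 and 169 in the prefrontal libraries. The difference was -5.29 in log2 units (SE 0.197, limma adjusted p = 7.7e-07). P2ry12, the purinergic receptor gene by which resting microglia are known, stood at 3.61 and 4.04 against 104 and 106, 22-fold lower, and its neighbour P2ry13 at 0 and 0.0234 against 27.1 and 27.6. Both lie within Med12l, so their values are uncertain. The receptor gene Fcrls stood at 0.637 and 0.61 against 33.9 and 32.3, 21-fold lower (limma adjusted p = 2.3e-07). Cx3cr1, the fractalkine receptor gene, stood at 3.61 and 3.24 against 34.6 and 35.2, and Csf1r, the receptor gene for the growth factor on which microglia depend, at 4.24 and 5.42 against 70.4 and 77.6. C1qb, of the complement C1 complex, stood at 25.6 and 27 against 212 and 210.4. The smallest change was in the factor gene Sall1, at 0.664 and 0.702 against 1.03 and 1.06.

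Spi1, which encodes the myeloid factor PU.1, stood at 1.13 and 0.964 against 3.66 and 2.45, and the interferon regulatory factor gene Irf8 at 1.01 and 1.16 against 4.31 and 3.89. The 250 bases before the start of C1qc, a complement gene at 0.708 and 0.832 against 18 and 17.4, are shown because the list moved together and PU.1 is its best known factor; the capitals mark the reverse complement of GAGGAAGT, a core sequence bound by PU.1 (RefSeq, GRCm38.p6, chr4:136892915-136893164, minus strand).
C1qc: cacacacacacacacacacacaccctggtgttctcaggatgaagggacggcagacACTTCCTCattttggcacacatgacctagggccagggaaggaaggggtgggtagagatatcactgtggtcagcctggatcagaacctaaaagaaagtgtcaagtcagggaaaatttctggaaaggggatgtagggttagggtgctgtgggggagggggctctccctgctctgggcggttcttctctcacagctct
GAGGAAGT, searched on either strand, was found in 2.44% of the 32851 windows. Among the 17 microglia genes with a window in the table, which have 21 windows, it was found only in that of C1qc, and a single match says nothing of the list.

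**Figure D3:**
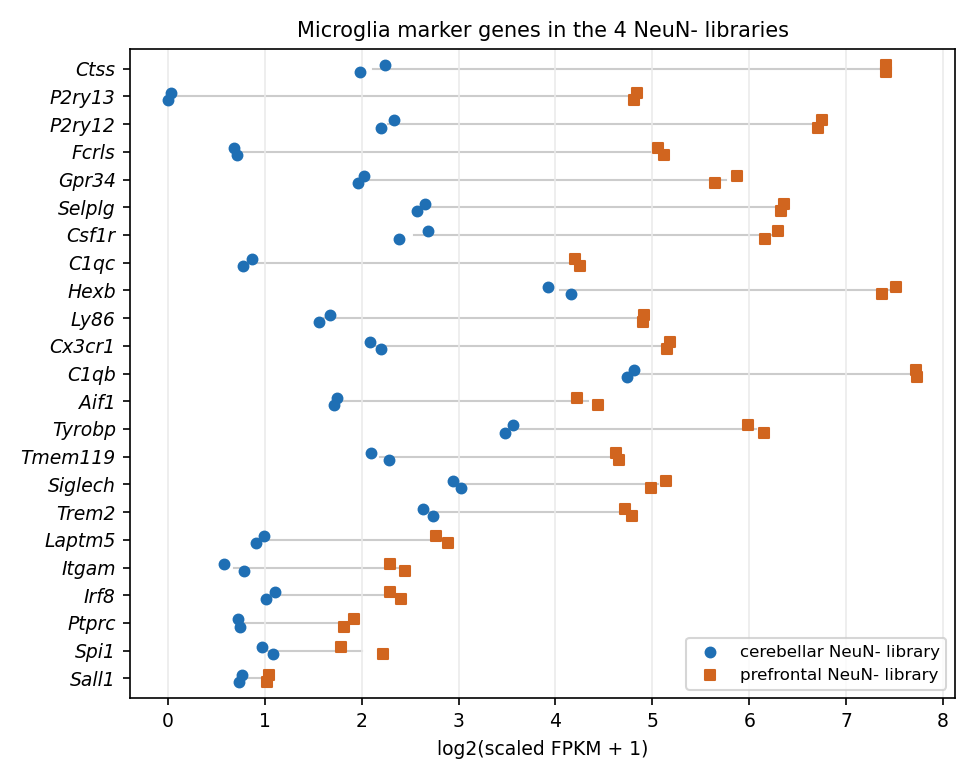
Levels of the 23 tested microglia genes as log2(scaled FPKM + 1), 1 point per library, circles for the cerebellar and squares for the prefrontal NeuN- libraries. All squares lie to the right of the circles of the same gene, least for Sall1.

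Genes of antigen presentation and the interferon response, which microglia share with other cells, did not move one way. Of 22, 8 were higher, 9 lower and 5 not called (median -0.08; 10 and 9 with a common sum). B2m, the light chain gene of class I molecules, stood at 21.7 and 20.4 in the cerebellar and 93.5 and 88.3 in the prefrontal libraries, 4.18-fold lower (limma adjusted p = 2.3e-07); it overlaps Patl2. The proteasome gene Psmb9 stood at 0.111 and 0.0902 against 3.6 and 1.98 and the interferon-induced gene Ifit3 at 6.98 and 6.05 against 14.5 and 17.1. The signal transducer gene Stat2 was 4.65-fold higher in cerebellar nuclei, at 23.2 and 23.2 against 3.81 and 4.64, and the interferon-induced protease gene Usp18 2.04-fold higher.

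Most endothelial genes were below the minimum in both groups. Of 20 endothelial genes, 6 were tested, with 2 higher and 4 lower. The defining markers were at or near 0: Pecam1 was listed at 0 in all 4 libraries, and Cldn5, Flt1, Tie1 and Tek stayed under 0.31. Slco1c1, a thyroid hormone transporter gene of brain vessels and astrocytes, stood at 2.25 and 2.4 against 49.9 and 53.1, 15.8-fold lower (limma adjusted p = 8.2e-08). Mfsd2a, a lipid transporter gene, stood at 4.06 and 3.98 against 53.2 and 56.4, 11.1-fold lower (limma adjusted p = 8.9e-08). The endothelial genes Cdh5 and Ly6c1 stood at 1.22 and 1.24 against 0.135 and 0.0506 and at 4.5 and 4.25 against 1.35 and 1.03. Summed over the list, levels were 19.25 and 18.54 in the cerebellar and 121.5 and 129.7 in the prefrontal libraries, and without Slco1c1 and Mfsd2a, left out after their values were seen, they were 12.93 and 12.16 against 18.34 and 20.3.

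Pericyte and smooth muscle genes had 4 higher, 5 lower and 1 not called of 10 (median -0.26; 4 and 3 with a common sum). Kcnj8, a potassium channel gene of pericytes, was 2.96-fold lower (1.11 and 1.24 against 5.22 and 5.63) and the vitronectin gene Vtn 1.84-fold lower, while the receptor gene Pdgfrb was 1.82-fold higher (9.3 and 11.1 against 5.57 and 4.68). Meningeal fibroblast genes had 6 higher, 2 lower and 2 not called of 10 (median 0.59), with the collagen gene Col1a2 at 8.65 and 9.09 against 2.5 and 3. One of the 2 lower members was Pdgfra, which precursors also express. Choroid plexus and ependymal genes had 3 higher and 3 lower of 6, with the choroid plexus markers Folr1 and Clic6 listed at 0 in all 4 libraries. Of the 6, 2 reached the minimum in cerebellar libraries only and 3, with Dynlrb2 and Rsph1, in prefrontal libraries only, which set their direction. With 1 FPKM required in all 4 libraries, 0 were called higher and 0 lower. Ttr, the most abundant choroid plexus message, stood at 5.92 and 5.08 against 0.419 and 0.938, and the cilia genes Dynlrb2 and Rsph1 at 0 and 0.174 against 10.5 and 6.56 and 0.209 and 0.114 against 6.08 and 4.68. Globin levels were not low: the red blood cell list summed to 856.8 and 870.1 in the cerebellar and 868.8 and 777.2 in the prefrontal libraries. The 6 globin features of the red blood cell list, to which Hbb-bs does not belong, were not called in any case; they include near-identical copies, and with a common sum or quantile normalization 4 were called higher. The part of these cells in the other results was not tested.

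Among signalling pathways, Wnt genes were more often higher than lower, with 10 higher, 2 lower and 3 not called of 15 (median 0.62). The number lower was 4 without scaling and with quantile normalization, and without the FPKM minimum 13 were higher and 8 lower of 31. The receptor genes Fzd1 (8.5 and 9.43 against 1.64 and 1.61) and Lrp6 (5.11 and 5.35 against 1.47 and 1.49) were 3.79-fold and 2.51-fold higher, and the ligand gene Wnt7a 2.07-fold higher. Dkk3, which encodes a secreted protein of the Dickkopf family, was 11.3-fold lower (3 and 3.3 against 46.4 and 45.2, limma adjusted p = 8.2e-08), and the target factor gene Lef1 2.13-fold lower. Hedgehog genes had 5 higher, 4 lower and 1 not called of 10 (median 0.21; 5 and 5 without scaling and with quantile normalization). The target gene Gli1 stood at 3 and 2.74 against 0.0741 and 0.166, 3.46-fold higher, and it overlaps Arhgap9. The receptor genes Boc and Smo were 2.24-fold and 1.95-fold higher, while Gli3, which mainly acts as a repressor, stood at 0.285 and 0.272 against 2.88 and 2.87, 3.03-fold lower. Of the 10 Hedgehog genes, 1 reached the minimum in cerebellar libraries only and 2 in prefrontal libraries only, which set their direction.

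Notch genes had 5 higher, 2 lower and 4 not called of 11 (median 0.19). Jag1, a ligand gene, stood at 1.66 and 2.08 against 0.452 and 0.579, Rbpj, of the nuclear effector, at 11.6 and 12.3 against 6.29 and 5.99 and the target gene Hes1 at 6.87 and 6.68 against 3.9 and 3.94. Another target, Hey1, was 3.53-fold lower (4.96 and 5.45 against 19.8 and 22). FGF genes had 8 higher, 5 lower and 1 not called of 14 (median 0.28), and 5 higher and 5 lower without scaling or without cerebellar NeuN- replicate 1. Fgfr1 was 2.58-fold higher and the intracellular factor gene Fgf11 4.08-fold higher. The phosphatase gene Dusp6, a target of this pathway, was 5.8-fold lower (8.19 and 9.65 against 55.5 and 57.4).

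BMP and TGF-beta genes had 8 higher, 12 lower and 4 not called of 24 (median -0.16; 11 and 9 with a common sum). Besides the ligand genes Gdf10 (higher) and Bmp4 (lower), Chrdl1, a BMP antagonist gene of astrocytes, stood at 0.0841 and 0.109 against 9.7 and 9.88, 9.84-fold lower (limma adjusted p = 3.6e-07). The receptor gene Tgfbr1 was 2.97-fold lower and the target gene Id2 2.89-fold lower (98.2 and 104 against 289 and 298). Of the 24 genes, 2 reached the minimum in cerebellar libraries only and 3 in prefrontal libraries only, which set their direction. Ephrin and Eph receptor genes had 6 higher, 7 lower and 1 not called of 14 (median -0.26; 7 and 7 with a common sum). The receptor genes Epha7, Epha4 and Epha5 and the ligand gene Efna1 were 6.43-fold, 4.23-fold, 3.45-fold and 3.82-fold lower. Epha10 and Ephb2 were 4.27-fold and 2.69-fold higher. Of the 14, 3 reached the minimum in cerebellar libraries only and 3 in prefrontal libraries only, which set their direction. With 1 FPKM required in all 4 libraries, 3 were higher and 4 lower.

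Of 21 genes for glutamate receptor subunits, 12 were higher, 8 were lower and 1 was not called (median 0.45). Of the 21, 2 reached the minimum in cerebellar libraries only and 2 in prefrontal libraries only, which set their direction. Besides Gria1, the AMPA receptor gene Gria4 stood at 59.3 and 59 in the cerebellar and 12.7 and 14.5 in the prefrontal libraries, 4.12-fold higher (limma adjusted p = 4.1e-07). Grin1, the obligatory NMDA receptor subunit gene, stood at 10.1 and 11.1 against 1.84 and 1.45, 4.39-fold higher; it overlaps Grin1os and Lrrc26. Grm5 was 6.12-fold lower (0.31 and 0.325 against 6.63 and 7.53). GABA and glycine receptor genes had 5 higher, 10 lower and 2 not called of 17 (median -0.80). Of the 17, 4 reached the minimum in prefrontal libraries only, Gabra5 and Gabrg3 among them, and 1 in cerebellar libraries only. The filter set their direction. Gabra5, the subunit gene of extrasynaptic cortical receptors, stood at 0.0271 and 0.0221 against 12.8 and 13.9, 14-fold lower (limma adjusted p = 8.5e-08), while Gabrd, of extrasynaptic granule cell receptors, was 2.35-fold higher (38.5 and 41 against 16.5 and 16.2). Gabrg1 was 5.69-fold lower, the glycine receptor gene Glrb 2.53-fold lower, and Gabrg3 was listed at 0 in both cerebellar libraries and at 3.48 and 2.86 in the prefrontal ones.

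Genes of the brain extracellular matrix had 8 higher, 11 lower and 2 not called of 21 (median -0.25; 9 and 8 with a common sum). Sparcl1, which encodes the astrocyte protein hevin, stood at 100 and 104 against 328 and 361, 3.35-fold lower (limma adjusted p = 4.6e-07). The glypican gene Gpc5 stood at 0.975 and 0.976 against 12.8 and 14.1, and the link protein gene Hapln1 at 0.111 and 0.045 against 4.68 and 4.12. Spock2, a proteoglycan gene, stood at 8.79 and 8.66 against 0.482 and 0.439, 6.66-fold higher, and Gpc6 was 2.22-fold higher. Of the 21 matrix genes, 4 reached the minimum in prefrontal libraries only and 1 in cerebellar libraries only, which set their direction.

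Cholesterol genes were mostly lower in cerebellar nuclei, with 15 of 23 lower, 4 higher and 4 not called (median -0.55). Without scaling 2 were higher and 17 lower, with a common sum 7 and 12, and without cerebellar NeuN- replicate 1 there were 2 higher. Msmo1, of the late synthesis pathway, stood at 50.8 and 49.1 against 223 and 227, 4.44-fold lower (limma adjusted p = 2.9e-07). Apoe, the lipid carrier gene of glia, was among the most abundant messages, at 1604 and 1618 against 4231 and 4409, 2.68-fold lower (limma adjusted p = 1.1e-06). That call was lost under quantile normalization, where the change was -0.12 (limma adjusted p = 0.12).

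Chaperone genes were lower in 8 of 11 cases, higher in 2 and not called in 1 (median -0.82). Hspa5, of the endoplasmic reticulum, stood at 29.2 and 26.6 against 131 and 150.4, and Hspa8, the constitutive cytosolic Hsp70 gene, at 252 and 250.2 against 1117 and 1231, 4.66-fold lower (limma adjusted p = 2.4e-07). Hspb1 (7.08 and 8.16 against 1.16 and 1.09) and Bag3 (3.96 and 4.15 against 0.965 and 0.86) were higher. Immediate early genes had 3 higher, 5 lower and 1 not called of 9 (median -0.29; 4 and 4 with a common sum), with Egr3 at 0 and 0.0152 against 3.75 and 4.12 and Fos 2.03-fold higher.

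Nuclear long RNAs were higher in 5 of 7 cases and lower in 2 (median 1.44). Their list was drawn up with RNA quality in view, as were those of ribosomal protein and respiratory chain genes. The part of RNA quality in these and the other results was not tested. Meg3, the imprinted RNA of the Dlk1 locus (chromosome 12, 110779206 to 110809939, mm9), stood at 189.8 and 199 in the cerebellar and 10.5 and 10.4 in the prefrontal libraries, 17-fold higher (SE 0.0434 on the log2 scale, limma adjusted p = 2.9e-08). The snoRNA host gene Snhg11 stood at 335 and 335 against 19.7 and 20.6, 15.9-fold higher (limma adjusted p = 2.9e-08). Neat1, the RNA that builds paraspeckles, stood at 317 and 320.3 against 110.2 and 108, 2.9-fold higher. The increases of Meg3 and Snhg11 were not seen in the NeuN+ libraries. There Meg3 stood at 468.4 and 474.9 in cerebellum against 502.7 and 498.7 in prefrontal cortex, and Snhg11 at 451.5 and 463.1 against 907.2 and 913.5. The difference between the gates was called for both (limma adjusted p = 2.1e-07 and 1.9e-07). Neat1 was higher in cerebellum there too, at 11.1 and 10.6 against 0.802 and 1.17. Of the 4 groups, prefrontal NeuN- libraries held the least Meg3 and Snhg11, while Neat1 was lowest in prefrontal NeuN+ libraries. Meg3 overlaps microRNA genes. Sox2ot and Miat were 1.65-fold and 2.66-fold lower. Malat1 was listed at 0 with the status HIDATA, given for loci with too many fragments to estimate, in all 4 libraries and has no usable value.

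Nuclear genes of the mitochondrial respiratory chain had 5 higher, 24 lower and 8 not called of 37 (median -0.62). The number higher ran from 1 without scaling to 12 with quantile normalization, and leaving out single NeuN- libraries gave 1 to 9. Atp5c1 (84.4 and 87.7 against 247 and 259) and the succinate dehydrogenase gene Sdhb (110.2 and 112 against 308 and 302) were 2.92-fold and 2.73-fold lower, while Sdhc was 2.4-fold higher. Cytosolic ribosomal protein genes had 11 higher, 19 lower and 21 not called of 51 (median -0.12), and this balance was not stable. It was 5 and 30 without scaling, 25 and 10 with a common sum, 29 and 10 with quantile normalization, and 17 and 17 without prefrontal NeuN- replicate 1. Genes of histone mark enzymes had 15 higher, 3 lower and 4 not called of 22 (median 0.41), against 12 and 6 without scaling and 17 and 1 with a common sum. The H3K4 methyltransferase genes Kmt2b and Kmt2a were 2.55-fold and 1.95-fold higher, the H3K4 demethylase gene Kdm5b 2.06-fold higher, and the deacetylase gene Hdac4 3.01-fold higher (11.9 and 11.9 against 3.35 and 3.23). Hdac9 was 2.05-fold lower.

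**Figure D4:**
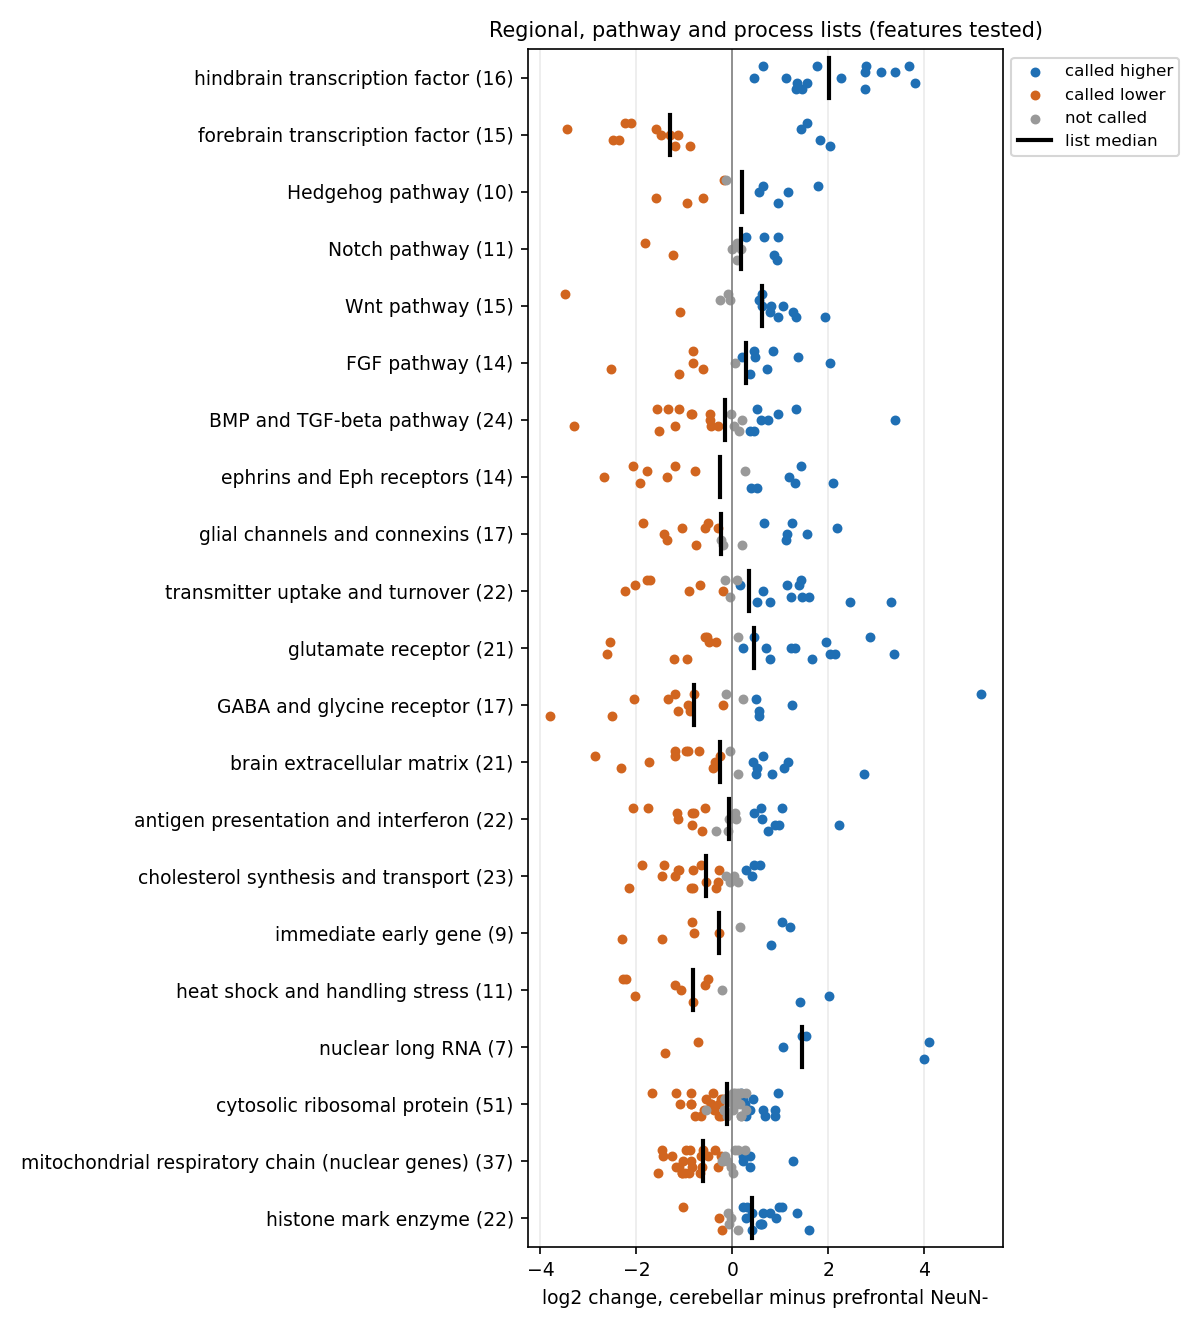
Log2 change (cerebellar minus prefrontal NeuN-) of each tested feature in 21 regional, pathway and process lists, with the number tested in parentheses; colours give the limma call and black bars the list median. All 16 hindbrain factors lie above 0, heat shock and respiratory chain genes mostly below, and ribosomal protein genes around 0.

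For a region change to be called particular to the NeuN- gate, its difference from the change in the NeuN+ gate was tested. Limma called that difference for 9514 of 13469 features (70.6%), with 4984 more positive and 4530 more negative in NeuN-. Abi3bp had the largest positive difference: it was higher in cerebellar NeuN- nuclei and lower in cerebellar NeuN+ nuclei (2.09 and 2.06 against 5.7 and 6.08). For Sst the difference was -0.15 (limma adjusted p = 0.69), for Crym -0.09 (limma adjusted p = 0.45) and for Emx1 0.19 (limma adjusted p = 0.38), none of them called. For the microglia gene Ctss it was -4.10 (limma adjusted p = 2.5e-05) and for Fcrls -3.53 (limma adjusted p = 6.7e-06), where Ctss stood in NeuN+ nuclei at 3.38 and 1.8 in cerebellum and 7.22 and 6.76 in prefrontal cortex. The named Bergmann glia genes varied: the difference was 3.06 for A2m, 4.86 for Gria1, 2.71 for Dao, 0.73 for Gdf10, -1.75 for Fabp7 and 1.20 for Etv5 (limma adjusted p from 2.3e-07 to 0.0012).

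**Figure D5:**
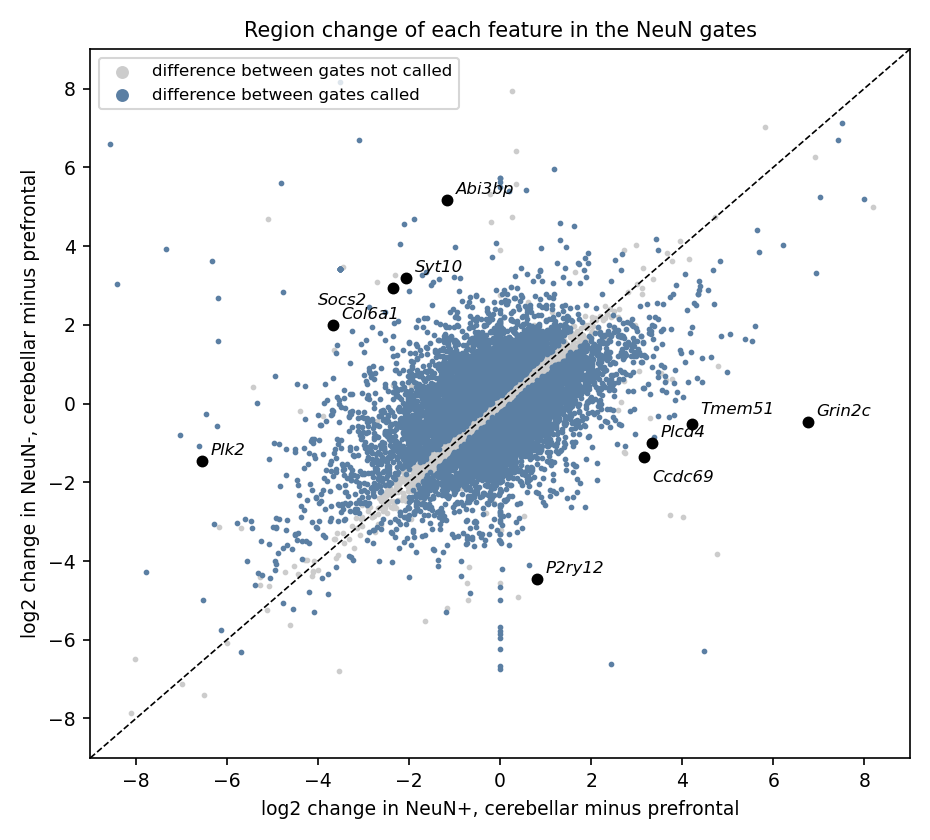
Region change of each feature, cerebellar minus prefrontal on the log2 scale, in NeuN+ nuclei (horizontal axis) and NeuN- nuclei (vertical axis); the dashed line marks equal changes, blue points had a called difference between the gates, and black points are the 10 named genes. Abi3bp, Col6a1, Socs2, Syt10 and Plk2 lie above the line, and Grin2c, P2ry12, Tmem51, Ccdc69 and Plcd4 below it.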

How the data were processed

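RNA of sorted nuclei of 1 mouse was sequenced in 8 libraries. Per the labels' protocols, frozen cerebellum was homogenized, and nuclei were purified through sucrose, stained for NeuN and sorted. How prefrontal cortex was taken is not stated. The deposited values are FPKM, which the authors made per gene with Cufflinks (per the file headers and the notes). The submitters' processing notes list, without roles, mm9, Bismark, Bowtie 1.1.1, TopHat2 2.1.1 and Trim Galore 0.3.7. Annotation, strand use and Cufflinks version: not given in the sources used here. These values are not counts: of the fragment numbers under 20 that the confidence limits imply, 41.8% to 47.8% came within 0.05 of a whole number, so no reads were recovered. Gene coordinates are on mm9 and count from 1. Gene types were matched to RefSeq for 23576 features by symbol and 1150 by synonym, with 128 unmatched.

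FPKM were scaled by median-of-ratios factors over the 9109 features that reached 1 FPKM in every library. Limma 3.58.1 (R 4.3.3) was run on log2(scaled FPKM + 1) (variance trend, 4 group means, 4 residual degrees of freedom, two-sided tests). Calls needed a Benjamini-Hochberg adjusted p under 0.05 over all features tested. Gene lists were described by their counts and median and were not tested as lists. Medians include genes listed at 0, whose changes depend on the pseudocount of 1. In simulated data with 13471 genes for this comparison, limma called 24%, 68%, 88% and 98% of 50 genes changed 1.25-fold, 1.5-fold, 2-fold and 4-fold. It called 0.1% of 13271 unchanged genes. The changed genes were drawn from features averaging above about 5 scaled FPKM, with folds on the FPKM + 1 scale. These rates do not cover changes in lower genes. They were obtained with 13271 of 13471 genes unchanged, whereas limma called 81.9% of features in the libraries themselves. Rates with a larger share of changed genes were not tested.

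Named genes are the 12 largest increases and decreases averaging 5 scaled FPKM or more in the higher group, groups apart and no predicted, clone or small RNA symbol, from each list at most 4 called members in the commoner direction and at most 2 in the rarer, with a mean of 1 or more, Rbfox3, and the 5 largest differences between the gates in each direction. Some genes that the rule names are not reported here. Members named outside this rule were chosen after their values were seen. The genes and lists were chosen with earlier results of these data known. The alternatives were other scalings, pseudocounts of 0.1 and 5, other filters, the 4 NeuN- libraries alone, no variance trend, a replicate term, separated confidence limits and leaving out each library. Promoter letters are from RefSeq, GRCm38.p6.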

Additional observations from a re-analysis of the deposited data

Results flagged for a closer look

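The region change differed between the NeuN gates for 9514 of 13469 features by limma's test of the difference (70.6%). The 5 named genes with the largest positive difference, NeuN- change minus NeuN+ change on the log2 scale, were Abi3bp, Col6a1, Socs2, Syt10 and Plk2. For Abi3bp it was 6.34 (SE 0.0912, limma adjusted p = 2.1e-07). For Col6a1, a collagen VI chain gene, it was 5.67 (SE 0.158), with 5.55 and 5.03 in cerebellar and 0.736 and 0.431 in prefrontal NeuN- libraries and 0.772 and 0.593 against 20.5 and 20.5 in NeuN+. Socs2, which encodes an inhibitor of cytokine signalling, had 5.27 (SE 0.102), with 61 and 59.3 against 6.55 and 7.55 in NeuN- and 4.43 and 4.49 against 27.7 and 25.9 in NeuN+. Syt10, a synaptotagmin gene, had 5.25 (SE 0.209) and was listed at 0 in both cerebellar NeuN+ libraries. The polo-like kinase gene Plk2 had 5.08 (SE 0.0934), with lower cerebellar levels in both gates: 18.2 and 19.5 against 50.6 and 56.3 in NeuN- and 1 and 1.05 against 192 and 184 in NeuN+.

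The 5 largest negative differences were in Grin2c, P2ry12, Tmem51, Ccdc69 and Plcd4. Grin2c had -7.25 (SE 0.0723, limma adjusted p = 7.4e-08), with NeuN+ levels of 137 and 137 in cerebellum and 0.247 and 0.272 in prefrontal cortex. P2ry12 had -5.28 (SE 0.2), Tmem51 -4.75 (SE 0.105), Ccdc69 -4.53 (SE 0.119) and the phospholipase gene Plcd4 -4.35 (SE 0.164). P2ry12, Tmem51 and Plcd4 overlap other features, so their values are uncertain. Ccdc69 was listed at 0 in both cerebellar NeuN- and both prefrontal NeuN+ libraries, so the sizes of the Syt10 and Ccdc69 differences depend on the pseudocount and are no bounds. For these 10 genes limma adjusted p reached at most 3.9e-06, and all 10 kept their direction and their call under each alternative run for this difference. Groups of 2 libraries allow no test for a single aberrant library.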

How the results depend on the processing

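Of 240 named genes, 229 kept their direction and call under all 22 alternatives in which they were tested. Hdac2 reversed with a common FPKM sum, to 0.017 from -0.27, and was not called. Calls were lost in 18 values, of genes that included Ndufa2, Tagln, Fyn, Calb1, Apoe, Hdac2, Vtn, Atp13a5, Kcne2 and Spry1. A pseudocount of 5 gave 591 features at least 2-fold higher and 1253 at least 2-fold lower. Requiring 1 FPKM in all 4 NeuN- libraries gave 1334 and 1631, and 5 FPKM in 2 of them gave 3390 higher and 1289 at least 2-fold higher; these filters leave fewer features to test. Leaving out each library in turn gave these ranges of feature counts: 5156 to 5545 higher, 5119 to 5416 lower, 1991 to 2108 at least 2-fold higher, 2451 to 2551 at least 2-fold lower and 8821 to 9058 with a difference between the gates. Of 1892 list counts under alternatives, 119 moved by more than 1.5 times. For the hindbrain factors, 2 were tested, and higher, with 1 FPKM required in all 4 libraries.

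Replicate numbers are shared by the groups in the titles, but same-numbered libraries deviated together with correlations of only -0.03 to 0.07, so they share a number and no known pairing. With the replicate number as a block, 5583 were higher, 5426 were lower, 2063 were at least 2-fold higher, 2503 were at least 2-fold lower and 9409 had a difference between the gates.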

Other observations

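Long noncoding RNA features were called higher in cerebellar NeuN- nuclei more often than lower, with no test of that balance. Of 719 long noncoding RNA features tested, 397 were called higher and 183 lower, against 5029 higher and 5146 lower of 12340 protein-coding features. Of 115 microRNA features 38 were higher and 28 lower, and of 65 small nucleolar RNA features 21 and 15; FPKM of such short features are imprecise.

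Several of the most abundant messages of prefrontal NeuN- nuclei were lower in cerebellar ones, and they were picked here after their values were seen. Calm2, a calmodulin gene, stood at 797 and 772 in the cerebellar and 4128 and 4164 in the prefrontal libraries, Ubb, a ubiquitin gene, at 1491 and 1480.0 against 4923 and 5124, and Cst3, the cystatin C gene of glia, at 408 and 415 against 2523 and 2295. The tubulin-binding protein gene Stmn1 stood at 187 and 186 against 1458 and 1423, and the cyclophilin gene Ppia at 797 and 766 against 2368 and 2307. The limma adjusted p of these 5 genes ran from 8.2e-08 to 8.3e-07.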
